A study of Mus musculus with 7 samples.

Results

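Cytosolic ribosomal protein genes were followed in mouse brain and mouse kidney on both strands. A probe set belonged to the group when the array annotation gave it 1 gene symbol and that symbol began with Rpl, Rps or Rplp followed by a number, with pseudogenes, the Rps6k kinases and Rps19bp proteins left out. The rule found 50 genes among the 18278 genes that have a probe set of 1 symbol. Of the 50, 48 had a sense probe set, 7 had a reverse probe set, and 5 had both. They were read by 103 sense and 8 reverse probe sets. A further 110 sense probe sets list such a symbol together with other symbols, and 31 ribosomal protein genes appear only there, so those genes were counted and not named.

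The series holds 7 Affymetrix arrays of total RNA from whole dissected brain and kidney. Brain RNA (8 micrograms in the labelling reaction) was read on 430A and 430B arrays for sense transcripts and on U74A and U74B arrays for antisense transcripts. Kidney RNA (6.75 micrograms) was read on a 430 2.0 array, which carries the probe sets of both brain sense arrays, and on U74A and U74B arrays. The U74 signals are those of probe sets whose orientation was turned round, so that they bind antisense RNA. The labels name no strain, age, sex or number of animals. With a single array (n = 1) for every tissue and design, the values below carry no replicate error and nothing was tested for significance. Brain and kidney sense signals came from different array types, so tissue and array type cannot be told apart. In whole tissue, fewer cells of a type and less RNA per cell cannot be told apart either.

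The cytosolic ribosome has a small subunit, which decodes the mRNA, and a large subunit, which joins the amino acids. Each ribosomal protein is present as a rule in a single copy per ribosome, except the acidic stalk proteins, which bind translation factors. Ribosomal protein mRNAs are among the most abundant of any cell, and in mammals they begin with a 5′ terminal oligopyrimidine (TOP) tract through which growth signals control their translation. Their genes have many processed pseudogenes, so array probes for them often match more than one sequence.

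The start sites of 6 genes that recur in the tissue comparison below are shown. Rpl38 was bright in both tissues with a ratio near 1, Rps27 is the partner of its paralog Rps27l, Rplp0 and Rps27l were among the furthest towards kidney, and Rps10 and Rps9 each had a probe set far from the others of the gene. Each sequence runs 5′ to 3′ from 60 bases before the annotated first base to the 20 bases that begin with it, in the RefSeq annotation of GRCm38.p6. Capitals mark the letters CCGGAAG on either strand (the core letters that ETS factors read), CTTTCC on the sense strand, and a run of at least 5 pyrimidines that covers the first base.
Rps27 (chr3:90213629-90213708, minus strand): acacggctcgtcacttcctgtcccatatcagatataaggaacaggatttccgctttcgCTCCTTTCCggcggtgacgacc
Rpl38 (chr11:114668520-114668599, plus strand): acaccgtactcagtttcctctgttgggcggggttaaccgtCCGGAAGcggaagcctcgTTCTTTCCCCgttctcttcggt
Rplp0 (chr5:115559407-115559486, plus strand): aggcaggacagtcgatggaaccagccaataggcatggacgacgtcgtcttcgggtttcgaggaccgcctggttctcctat
Rps27l, the upstream of its annotated starts (chr9:66946026-66946105, plus strand): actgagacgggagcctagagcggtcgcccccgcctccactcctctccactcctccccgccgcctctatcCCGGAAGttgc
Rps10 (chr17:27635225-27635304, minus strand): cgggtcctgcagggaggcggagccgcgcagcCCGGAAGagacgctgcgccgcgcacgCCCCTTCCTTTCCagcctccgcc
Rps9 (chr7:3703981-3704060, plus strand): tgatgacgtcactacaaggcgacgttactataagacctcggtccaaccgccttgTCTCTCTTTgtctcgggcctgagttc
The windows of Rps27, Rpl38, Rps10 and Rps9 carry the pyrimidine run over the start, and those of Rplp0 and Rps27l do not. Rps9 was also 2-fold higher in kidney, so genes higher in kidney are found both with and without the run. Whether the run goes with the tissue ratio was not tested.

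RefSeq gave 51 annotated starts for 43 of the 50 genes. A run of at least 5 pyrimidines over the first base was found at 13 of them (25.5%), beside 10.1% of all 32851 starts in the table. CTTTCC within 20 bases of the start on the sense strand was found at 7 starts (13.7%, beside 1.9% of all), and on the antisense strand at 0 (beside 1.7%). CCGGAAG on either strand within the 300 bases of the table, which reach 250 before the start and 50 from it, was found at 20 starts (39.2%, beside 8.9%). AAGATGGC, the letters read by YY1, was found at 4 starts (7.8%, beside 2.7%) on either strand. Matches can overlap, since CCGGAAG ends with the letters that AAGATGGC begins with and CTTTCC can lie inside a pyrimidine run. These are counts of letters, and annotated starts can lie some bases from the true ones.

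Markers of each tissue mostly followed the labels. All 5 neuronal markers, 2 of 3 astrocyte markers and both measured oligodendrocyte markers were higher in brain, with neuronal signals of 1022.9 to 8559.8 in brain and 0.2 to 43.3 in kidney. In kidney, 4 of 5 proximal tubule and 4 of 4 distal nephron markers were higher, and Lrp2, read by a 430B probe set, went the other way. The pituitary hormone genes Gh, Prl and Pomc read 3041.6 to 5129.1 in brain and 1.6 to 52.7 in kidney. How much pituitary RNA adds to the brain values was not tested. To set the tissues side by side, each brain array was centred on the kidney array at the median log2 ratio of probe sets above the median of both, which removed -0.84 from 430A and 2.08 from 430B. Signals under a floor (186.4 for 430A and 28.6 for 430B, on the kidney scale) were raised to it. Ratios below are brain over kidney after these steps, and "2-fold" refers to them.

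Many ribosomal protein probe sets were among the brightest on both tissues' arrays, while others were dim. Of the 103 sense probe sets, 60 lay at or above the 90th percentile of the brain array and 73 at or above that of the kidney array, whose percentiles are over 45037 probe sets. For the 98 on 430A, with percentiles over the probe sets of 430A alone, the numbers were 59 in brain and 68 in kidney. Below the 75th percentile were 35 of the 103 in brain and 23 in kidney. Rpl38, a large subunit protein, read 4421.6 in brain and 8847.5 in kidney. Rpl41, the smallest ribosomal protein, read 3920.2 in brain and 7992.9 in kidney with its brightest probe set. Rps29, a small subunit protein, read 3790.0 in brain and 7536.7 in kidney. These were the 3 ribosomal protein probe sets among the 100 brightest of the 22626 on the brain 430A array. On the kidney array, 23 of the 100 brightest of 45037 were ribosomal protein probe sets, of 18 genes. The plot of brain against kidney signals shows this cluster at the bright end of both arrays.

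**Figure D1:**
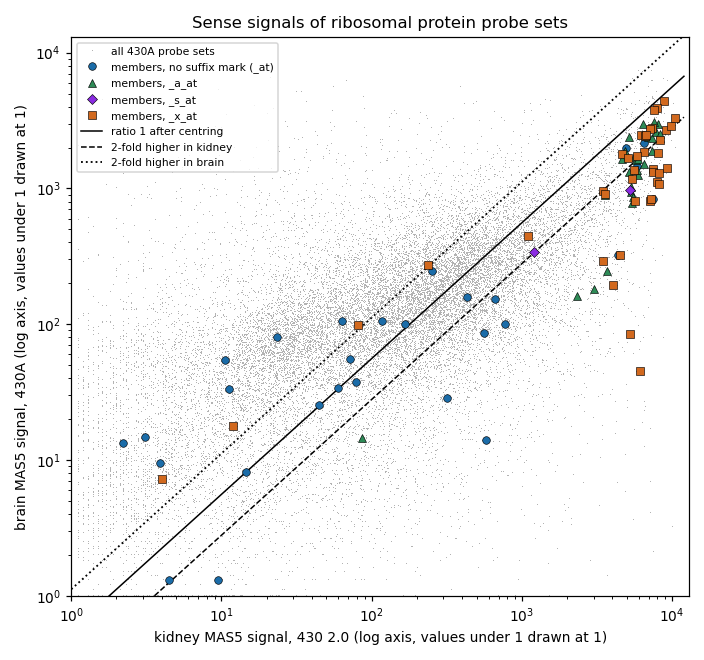
Each point is a 430A probe set, with its kidney MAS5 signal on the horizontal and its brain MAS5 signal on the vertical log axis. Coloured symbols are the 98 ribosomal protein probe sets by suffix, grey points are all 22626 probe sets, and the lines mark a ratio of 1 after centring and the 2-fold limits on either side. Most coloured symbols lie at the bright end, between the ratio of 1 and beyond the 2-fold limit towards kidney. Signals are drawn with no floor, so 45 symbols are past that limit and 11 past the one towards brain. After the floor these counts were 42 and 1.

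Between tissues, ribosomal protein mRNAs were lower in brain than in kidney relative to other genes. On 430A, 80 of the 98 probe sets were above the floor. Brain was higher by 2-fold or more in 1 of them, kidney in 42, and 37 lay between. The background over all 13364 probe sets above the floor was 19.8% higher in brain and 21.1% higher in kidney. Ribosomal protein probe sets had a median of -1.03 on the log2 scale (quartiles -1.71 and -0.60), beside 0.07 for all probe sets above the floor. Of the 5 probe sets on 430B, 4 were above the floor, 1 higher in brain and 3 in kidney, where the background was 18.7% for brain and 23.8% for kidney. By gene, each taken at its probe set with the highest mean percentile, 44 of 48 were above the floor. At 2-fold, 0 were higher in brain and 19 in kidney, while 25 lay between, and the median was -0.93. The background over all 12913 measurable genes was 18.2% for brain and 26.4% for kidney, with a median of -0.08. That background depends on 430B, from which centring removed 2.08, while the probe sets on both brain arrays gave 0.49. At this second shift, called the 430A scale, brain was higher in 3316 and kidney in 1956 of 12473 genes, with a median of 0.29. Ribosomal protein genes stayed at 0 and 19, with a median of -0.93. A probe set that passed the floor through kidney alone could only lean to kidney. Of the 66 sense probe sets at or above the 75th percentile on both arrays, 1 was 2-fold higher in brain and 33 in kidney. The share over all probe sets within that limit was not counted. Bright 430A probe sets as a whole leaned to kidney, with 7.89% higher in brain and 26.7% in kidney at a mean percentile of 95 or more. The 4 genes below the floor in both tissues were Rps16, Rps25, Rpl3l and Rpl39l, and Rpl24 and Rpl32 had a reverse probe set only.

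The number of 2-fold genes depended on how the sense arrays were scaled. With signals as deposited, 40 genes were 2-fold or more higher in kidney, with a median of -1.75, and with centring on the probe sets above the 90th percentile 10 were, with a median of -0.41. The share of all genes called was not counted under these scalings, so neither count has a background beside it. The 430A median stayed below that of all 430A probe sets under each of the 6 treatments of scale and floor shown in the plot of medians. As deposited it was -1.87 beside -0.63, and with centring above the 90th percentile -0.51 beside 0.36.

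**Figure D2:**
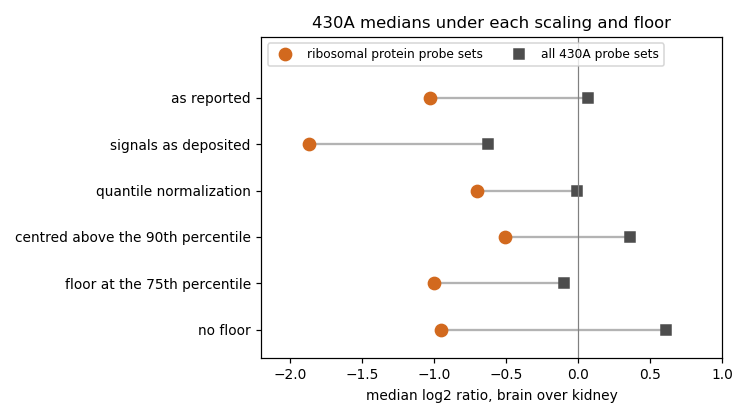
The horizontal axis is the median log2 ratio of brain over kidney on 430A, for ribosomal protein probe sets (circles) and all probe sets above the floor (squares), in 1 line per treatment of scale and floor. The circle lies left of the square in every line, and the ribosomal protein medians run between -1.87 and -0.51.

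Bright probe sets as a whole also leaned towards kidney. Among the 951 probe sets of 430A with a mean percentile of 95 or more, 7.89% were 2-fold higher in brain and 26.7% in kidney, and their median was -0.45 on the log2 scale. Ribosomal proteins made up 59 of these, with 0 calls towards brain, 29 towards kidney and a median of -0.99. The other 892 had a median of -0.40, with 75 higher in brain and 225 in kidney. The part of signal level in the difference was not tested beyond these values.

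The 20 large subunit genes were all above the floor, and 6 were 2-fold higher in kidney. Their median log2 ratio was -0.84. Over all measurable genes 26.4% were higher in kidney, so 6 of 20 was close to that share. At the 430A scale 1956 of all 12473 genes were higher in kidney. Rpl22, a large subunit protein that mice can live without, read 2854.8 in brain and 5954.7 in kidney with its brightest probe set, a log2 ratio of -3.15. That probe set is on 430B, and its ratio was -1.55 once 430B was put on the scale of 430A by way of the 100 probe sets that both brain arrays carry. Its 430A probe sets read 323.1 in brain and 4381.7 in kidney (-2.92), and 339.7 in brain and 1204.6 in kidney (-0.98). All 3 pointed to kidney by unlike amounts. Rpl35 read 1395.2 in brain and 7453.7 in kidney, a 2.98-fold difference, and all 5 of its probe sets above the floor were between -2.30 and -1.58. Rpl27a read 85.9 in brain and 557.3 in kidney, and since brain was below the floor, kidney was higher by at least 2.99-fold. A floor raised to the 75th percentile left -0.28, under 2-fold.

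Rpl8 (-1.39), Rpl10a (-1.26) and Rpl27 (-1.15) made up the rest of the 6. Another 8 large subunit genes lay between -0.97 (Rpl6) and -0.69 (Rpl37a) and were not called. Among these, Rpl14 read 28.8 in brain and 316.8 in kidney, so its -0.77 is a bound that the floor sets, and with no floor its ratio was -2.62. The other end of the large subunit held ratios nearer to 0 or above it. Rpl39, a small protein at the tunnel through which the nascent chain leaves, read 245.4 in brain and 253.8 in kidney. Its log2 ratio of 0.79 was the highest of all ribosomal protein genes after centring and floor. It was -0.05 as deposited, 0 with the floor at the 75th percentile and 1.24 with centring above the 90th percentile. With no floor the dim Rpl3l (3.1), Rpl12 (1.58) and Rps16 (1.09) lay above it. Rpl12 was dim, at 105.9 in brain and 63.6 in kidney, with a ratio of 0.03 set by the floor, and 1.58 with no floor. Rpl38 (-0.16), Rpl41 (-0.19), Rpl4 (-0.24) and Rpl37 (-0.44) were among the bright or middling genes under 2-fold. Rpl4 read 3008.7 in brain and 6384.8 in kidney, and Rpl37 read 449.6 in brain and 1093.7 in kidney.

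Of the 20 small subunit genes, 18 were above the floor and 8 were 2-fold higher in kidney. Their median log2 ratio was -0.94. The background over all measurable genes was 26.4% higher in kidney, and 1956 of 12473 at the 430A scale. Rps6, the target of the S6 kinases, read 100.7 in brain and 775.6 in kidney. Brain was below the floor, so kidney was higher by at least 4.16-fold. A floor raised to the 75th percentile brought its ratio to -0.76, under 2-fold. Rps20 read 1426.2 in brain and 9241.9 in kidney, a 3.62-fold difference. Rps19, which is mutated in the human anaemia of Diamond and Blackfan, read 867.7 in brain and 5470.8 in kidney, a 3.52-fold difference. Rps9 read 969.4 in brain and 5236.9 in kidney, a 3.02-fold difference. Rps26 (-1.14), Rps4x (-1.13), Rps14 (-1.03) and Rps3 made up the rest of the 8, and Rps28 (-0.89), Rps18 (-0.76), Rps3a1 (-0.57), Rps2 (-0.55) and Rps24 (-0.54) were under 2-fold.

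The highest small subunit ratios were those of Rps27, Rps29, Rps7 and Rps15. Rps27 read only 106.0 in brain and 116.7 in kidney, with a log2 ratio of 0.03 that the floor sets, and with no floor it was 0.70. The ratio was -0.15 for Rps29. Rps7 read 3103.0 in brain and 7581.8 in kidney, with a ratio of -0.45. Rps15 read 1988.0 in brain and 4935.2 in kidney, with a ratio of -0.47. Rps3, at 1643.2 in brain and 5899.8 in kidney, was just past the 2-fold limit (2.004-fold), and Rps10, at 2338.1 in brain and 8343.2 in kidney, just short of it (1.991-fold).

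The stalk proteins differed in degree. Rplp0, the protein that anchors the stalk to the large subunit, read 842.6 in brain and 7525.6 in kidney, 4.98-fold higher in kidney. Rplp2, one of the acidic proteins that it holds, read 2621.4 in brain and 7838.5 in kidney, with a log2 ratio of -0.74, under 2-fold. Each was read by a single probe set. Rplp1 shares its probe set with another symbol and is not named with a value, and no probe set of the annotation gave Rps27a, the ubiquitin fusion, as its symbol.

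Some genes of the group are paralogs that resemble another ribosomal protein gene. Of 6 such paralogs, 4 were above the floor and all 4 were 2-fold or more higher in kidney. Their median log2 ratio was -1.46, and the background over all genes was 26.4% higher in kidney. Rps27l alone of the 4 kept its call under every scaling and floor tried. With the floor at the 75th percentile Rps4l was at -0.34 and Rpl7l1 at -0.54, and with centring above the 90th percentile Rpl22l1 was at -0.65 and Rpl7l1 at -0.76. Rps27l, a paralog of Rps27 that is induced by p53, had 3 probe sets, which read 293.2, 193.6 and 245.5 in brain against 3446.5, 4055.9 and 3667.7 in kidney. Their ratios were -2.71, -3.55 and -3.06, so the 3 readings lay within 0.84 of each other. Rps27 itself had 1 probe set, close to the floor in both tissues. Rps4l read 14.1 in brain and 580.0 in kidney, so that it passed the floor through kidney alone and was higher there by at least 3.11-fold. Rpl22l1, the paralog of Rpl22, read 895.0 in brain and 3602.2 in kidney, a 2.25-fold difference. Rpl7l1 read 153.8 in brain and 666.9 in kidney (-1.27) with its brightest probe set, and 158.7 in brain and 429.6 in kidney (-0.60) with another. Its 430B probe set read 272.1 in brain and 183.7 in kidney, which is -1.52 after centring and 0.08 at the 430A scale. Rpl39l and Rpl3l, known for testis and for muscle, stayed below the floor at 1.3 and 14.8 in brain and 9.5 and 3.1 in kidney.

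**Figure D3:**
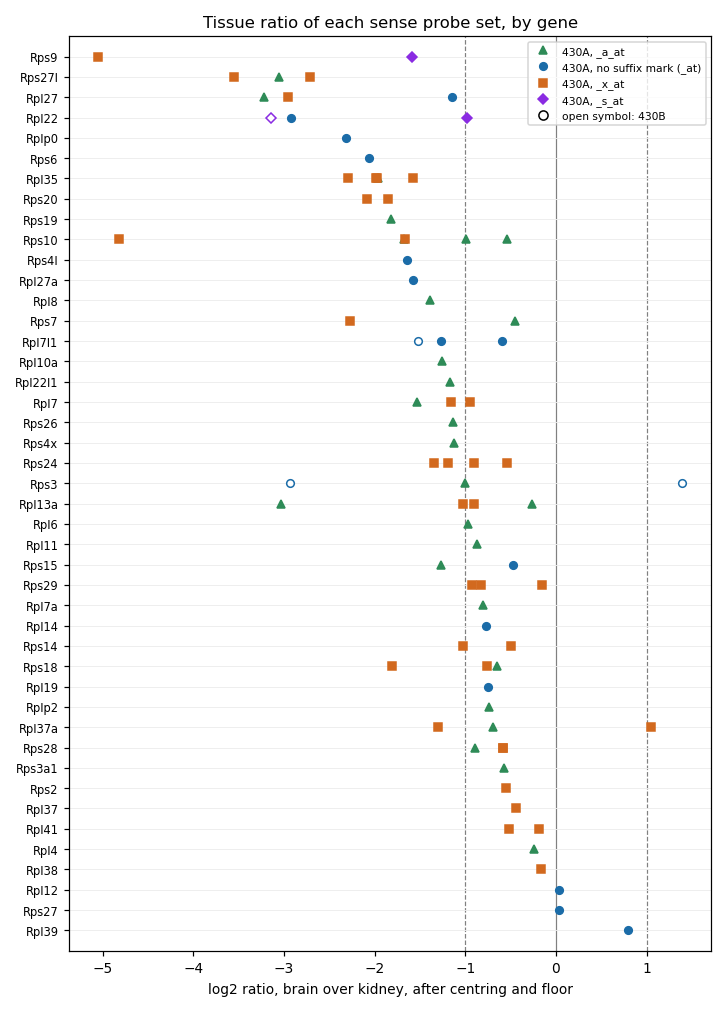
The horizontal axis is the log2 ratio of brain over kidney, after centring and floor, of each of the 84 sense probe sets above the floor, with genes down the page in the order of their median ratio. Symbols show the suffix, open symbols the 430B array, and dashed lines the 2-fold limits. Most points lie left of 0, and single points of Rps9, Rps10, Rps3 and Rpl13a lie far from the others of the same gene.

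Probe sets of the same gene read the same pair of RNA samples, so their ratios show how far the tissue difference depends on the probes. In 20 genes 2 or more probe sets (60 in all) were above the floor. The pooled SD of the log2 ratio within a gene was 1.05 over these probe sets, and 0.99 at the 430A scale. Among the 46 probe sets of 16 genes at or above the 75th percentile on both arrays it was 0.66. The SD between the 44 genes was 0.74, but with each gene at its probe set of highest mean percentile, so the sets are not alike. The 98 shared probe sets above the median of both brain arrays gave an SD of 0.25 between repeat readings of brain, and none of these belonged to a ribosomal protein gene. Within a gene, the ratios lay less than 1 apart in 11 genes and 2 or more apart in 7. Both counts depend on the scale of 430B. At the 430A scale the range of Rpl22 went from 2.17 to 1.94, and that of Rpl7l1 from 0.92 to 1.35.

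In 5 of these 20 genes every probe set above the floor was 2-fold or more higher in kidney: Rpl27, Rpl35, Rps9, Rps20 and Rps27l. Both probe sets of Rps20 above the floor were near each other, at -1.85 and -2.08. Those of Rpl27 were at -1.15, -3.22 and -2.96. Rps3, a small subunit protein at the entry of the mRNA channel, had ratios that covered 4.32, but 2 of its 3 probe sets are on 430B. Its brightest probe set gave -1.0. A 430B probe set that read 318.6 in brain and 5.7 in kidney gave 1.39, and another that read 227.7 in brain and 408.2 in kidney gave -2.93. At the 430A scale the last was -1.33 and the range 2.72, below those of Rps10 (4.28), Rps9 (3.46) and Rpl13a (2.77).

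Rps10 had 6 probe sets, 5 of them above the floor. Of these, 4 lay between -1.68 and -0.54. The fifth, an _x_at probe set, read 85.4 in brain and 5276.6 in kidney, so that kidney was higher by at least 28.3-fold. Rps9 showed the same pattern. An _x_at probe set read 44.9 in brain and 6162.3 in kidney. Kidney was higher there by at least 33.1-fold, beside the 3.02-fold difference of the gene's brightest probe set. Rpl13a, which also serves in the translational silencing of inflammatory mRNAs, had ratios of -0.26, -0.91, -1.03 and -3.03. Its outlying probe set read 160.1 in brain and 2341.1 in kidney, while its brightest read 2711.0 in brain and 9134.3 in kidney.

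Altogether 8 probe sets of 7 genes were below the 75th percentile in brain and at or above the 90th in kidney. They belonged to Rpl7l1, Rpl13a, Rpl27, Rps6, Rps9, Rps10 and Rps27l, and had a median log2 ratio of -3.14. A ratio towards kidney follows from this choice by percentile, so the median is a description only. In those of Rps6, Rps9 and Rps10, brain was below the floor. Kidney percentiles are over more probe sets than brain percentiles. With both taken over the probe sets of 430A, 6 of the 98 had this pattern and 0 had the opposite one, while over all 430A probe sets 573 had this pattern and 633 the opposite one. The Rps3 probe set that was higher in brain was at the 79.8 percentile in brain and at 16.7 in kidney.

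In Rpl37a the probe sets were called in opposite directions. Its brightest read 2382.9 in brain and 6875.3 in kidney (-0.69). A second read 1817.7 in brain and 8026.3 in kidney (-1.30). The remaining one read 275.1 in brain and 237.4 in kidney (1.05). The last was the 1 probe set of 430A that was higher in brain. Rps7 had a second probe set at 833.7 in brain and 7192.1 in kidney, with a ratio of -2.27.

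Other genes with 4 or more probe sets had some that lay below the floor in both tissues. For Rps18, 3 of 6 were above the floor, at -0.65, -0.76 and -1.81, and the other 3 read at most 17.8 in brain and 11.9 in kidney. For Rps24, 4 of 6 were above it, with ratios between -1.35 and -0.54. For Rpl41, 2 of 4 were above it, at -0.19 and -0.52. For Rpl35, 1 of 6 was below it, and for Rps20, 2 of 4. Dim probe sets of a bright gene carried mostly the plain _at suffix.

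The suffix of a probe set says how its probes match: _a_at stands for transcripts of 1 gene, _s_at for several genes and _x_at for probes that may also match other sequences. Above the floor were 27 of 28 probe sets with _a_at, 3 of 3 with _s_at, 37 of 40 with _x_at and 17 of 32 with the plain _at. The median log2 ratio was -1.0 for _a_at, -1.03 for _x_at and -1.15 for plain _at, with 14, 20 and 9 probe sets 2-fold or more higher in kidney. Each of these medians was thus towards kidney. Over all 430A probe sets above the floor 21.1% were higher in kidney, but the share for each suffix was not counted. Among the plain _at calls, those of Rps6, Rps4l and Rpl27a had brain below the floor and could only lean to kidney.

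Other genes of the translation machinery are given beside the gene background of 18.2% higher in brain and 26.4% in kidney. That background depends on the scale of 430B. With 430B on the scale of 430A, brain was higher in 3316 and kidney in 1956 of 12473 genes, with a median of 0.29. Of the 4 ribosomal proteins that carry other names, Rpsa and Fau had a probe set of their own. Rpsa, also known as the laminin receptor, read 1520.7 in brain and 6641.5 in kidney, a 2.44-fold difference. Fau, a fusion of a ubiquitin-like protein with a small subunit protein, read 1551.8 in brain and 5686.7 in kidney, a 2.04-fold difference. Of the 18 other TOP mRNAs, all read on 430A, 0 were 2-fold higher in brain and 6 in kidney, with a median of -0.80. Over all 430A probe sets above the floor, 19.8% were higher in brain and 21.1% in kidney. Lowest were Vim (-2.27), which encodes an intermediate filament of mesenchymal cells, and the elongation factor subunits Eef1d (-2.08) and Eef1b2 (-1.94). Highest were Tpt1 (0.38), Eef1a1 (0.26), the main elongation factor that brings tRNA to the ribosome, and the noncoding Gas5 (0.19).

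Among 46 measurable translation factor genes, brain was higher in 4 and kidney in 13, with a median of -0.58. At the 430A scale brain was higher in 6 and kidney in 11, with a median of -0.42. The background at that scale was 3316 for brain and 1956 for kidney of 12473 genes. This list was taken by symbol and also holds 3 methyltransferases of elongation factor 1A, of which Eef1akmt2, on 430B, was at -2.42 and at -0.82 on the 430A scale. Eef1a2, the elongation factor 1A of neurons and muscle, read 4737.2 in brain and 88.0 in kidney, so that brain was higher by at least 45.6-fold. Eif4g3, a scaffold of the cap complex, and Eif4a2, its helicase, followed at 1.28 and 1.27. Eif2a, read on 430B, was lowest at -2.82, but at -1.22 on the 430A scale, where Eef1d (-2.08) and Eef1b2 (-1.94) lay below it. Eif4e2, on 430B, was at 1.70 there. Eif2s3y, a translation factor gene of the Y chromosome, had signals of 1.1 for brain and 339.9 for kidney (at least 1.82-fold higher in kidney), and the labels do not say whether the tissues came from animals of the same sex.

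Mitochondrial ribosomal proteins, which serve the separate ribosome of that organelle, had 0 genes higher in brain and 25 of 76 higher in kidney, with a median of -0.61. The background over all genes was 18.2% for brain and 26.4% for kidney. At the 430A scale this list had 1 in brain and 23 in kidney, with a median of -0.60, beside 3316 and 1956 of all 12473 genes. Mrps6, on 430B, was at -3.84, and at -2.24 on the 430A scale, where Mrpl51 (-2.49) and Mrpl39 (-2.42) were lowest. Mrpl10 (0.80), Mrpl49 (0.67) and Mrpl41 (0.50) were highest after centring, and Mrps5, on 430B, at the 430A scale (1.19). Among 37 measurable ribosome biogenesis genes, brain was higher in 6 and kidney in 7, with a median of -0.34, neither count above its background. Nol6 (2.49), Nop56 (1.80) and Bop1 (1.17) were highest. Tsr1 (-2.17), Rrs1 (-2.03) and Riok2 (-1.79) were lowest, but all are read on 430B and were at -0.57, -0.43 and -0.19 on the 430A scale. There 2 genes of the list were higher in kidney, Nhp2 (-1.23) and Emg1 (-1.08). The plot by gene list shows these beside the ribosomal proteins. The biogenesis median was -0.15 at the 430A scale, where the median of all genes was 0.29.

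**Figure D4:**
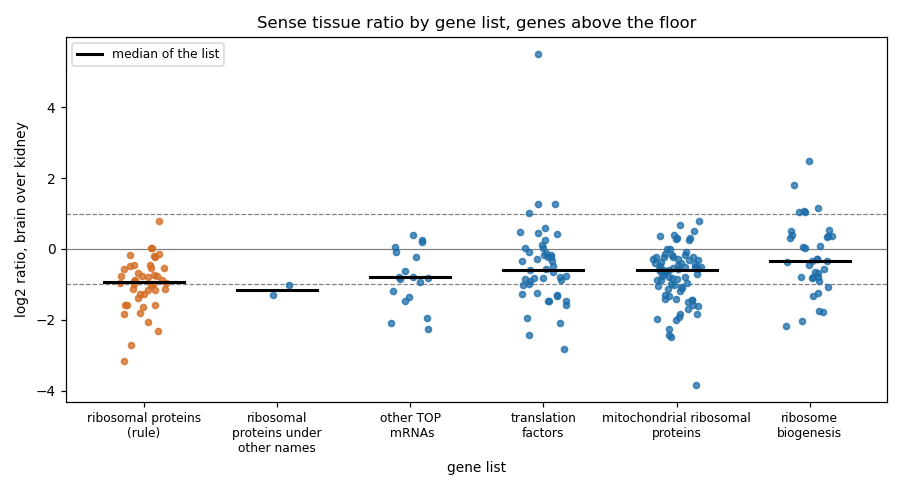
Each point is a gene above the floor, with its log2 ratio of brain over kidney on the vertical axis and its list on the horizontal axis; bars are list medians and dashed lines the 2-fold limits. The ribosomal protein median (-0.93) lies above that of the ribosomal proteins under other names (-1.16) and below those of other TOP mRNAs (-0.80), mitochondrial ribosomal proteins (-0.61), translation factors (-0.58) and biogenesis genes (-0.34). With quantile normalization it was -0.51, above the -0.56 of mitochondrial ribosomal proteins.

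On the reverse strand 8 probe sets of 7 genes were present, 7 on U74A and 1 on U74B. Of the 7 on U74A, 4 passed the floor of 63.5. At 2-fold, 0 were higher in brain and 1 in kidney, and the median was 0.13 on the log2 scale. Over all 723 reverse U74A probe sets above the floor, 28.8% were higher in brain and 3.73% in kidney, with a median of 0.55. With 4 values, the median changed sign under other settings, at -0.40 with the pair centred on its median.

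Rps27l was the 1 reverse probe set past 2-fold, at 90.4 in brain and 228.9 in kidney, 2.53-fold higher in kidney. Its 3 sense probe sets were higher in kidney as well. With the floor at the 90th percentile its reverse ratio was -0.70, under 2-fold. Rpl24, a large subunit protein, read 118.9 in brain and 50.6 in kidney on the reverse strand, a log2 ratio of 0.90 with kidney raised to the floor. Rps4x, an X-linked small subunit protein, read 164.5 in brain and 109.6 in kidney (0.59), while its sense probe set read 1881.3 in brain and 7390.0 in kidney (-1.13). With quantile normalization the reverse ratio of Rps4x was -0.28. Rpl19 had a reverse probe set at 51.9 in brain and 79.9 in kidney (-0.33) and another at 1.2 in brain and 1.0 in kidney. Its sense probe set read 2175.2 in brain and 6546.2 in kidney (-0.75).

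The other reverse probe sets were below the floor in both tissues. Rps25 read 20.5 in brain and 26.3 in kidney, and its sense probe set was below the floor too, at 101.0 in brain and 166.0 in kidney. Rpl32 read 21.9 in brain and 21.3 in kidney. Rpl27a, on U74B, read 71.0 in brain and 34.4 in kidney, under that array's floor of 98.5. Over all U74B probe sets above it, 14.3% were higher in brain and 6.41% in kidney. The probe sets of Rps4x, Rpl32 and Rpl19 carry the suffix _f_at, _r_at or _i_at, which marks probe families or relaxed probe choice, and those of the other genes carry none.

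**Figure D5:**
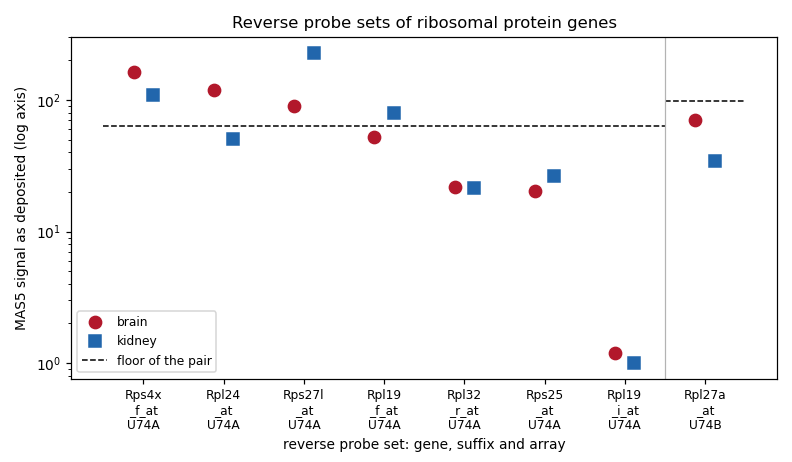
The vertical log axis is the MAS5 signal as deposited, for brain (circles, left) and kidney (squares, right), of each of the 8 reverse probe sets along the horizontal axis. The dashed lines are the floors of 63.5 for U74A and 98.5 for U74B. Rps4x and Rps27l are above the floor in both tissues, Rpl24 in brain and Rpl19 in kidney.

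Within each tissue, a reverse signal at or above the 75th percentile of its own array was found for 3 of the 7 genes in brain (Rpl24, Rps27l and Rps4x) and for 4 in kidney (the same 3 and Rpl19). Over all 2915 genes with a reverse probe set the share was 28.8% in brain and 28.6% in kidney. Of the 5 genes with probe sets on both strands, Rps27l, Rps4x, Rpl19 and Rpl27a were bright or above the floor for sense in at least 1 tissue and Rps25 was not. Sense and reverse levels come from different probes on different arrays, so their ratio is not given.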

How the data were processed

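The authors deposited MAS5 signals, per the submitters' processing notes, which are probe set intensity values that have not been logged. Per the labels, a mask from Affymetrix picked out the reverse probe sets of the U74 arrays, and the authors kept these. The files used here hold no detection calls, so a floor stood in for them. The sources used here do not give the scaling target, and probe sequences were not used here.

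Symbols came from the platform annotation held by GEO, and no ribosomal protein symbol changed when set against RefSeq. Sense pairs were centred and floored as described above. The 100 probe sets on both brain arrays were used once, from 430A, and as a repeat reading. Reverse signals were compared as deposited, with the higher 75th percentile of both arrays as floor. A probe set above the floor in at least 1 tissue was called at 2-fold, and a fold is "at least" where the lower tissue was below the floor. A gene was its probe set with the highest mean percentile. The spread within genes is the pooled SD over probe sets above the floor.

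Named genes were all those with a reverse probe set, paralogs, stalk genes, the 10 highest and 10 lowest sense ratios, the 8 widest spreads, genes with 4 or more probe sets, and the 3 highest and lowest of each other list. The genes, lists and rules were chosen with earlier results of these data known. Genes outside this rule, such as Rpl8 and Rps28, complete the counts of each subunit and were chosen after their values were seen. Alternatives in scaling, floor, fold and probe choice were run. The counting was tested on simulated data. Python 3.11.15 with pandas 2.3.3, numpy 2.4.6 and matplotlib 3.10.9 was used. The precision of all values is limited by the number of arrays, 1 in each group.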

Additional observations from a re-analysis of the deposited data

How the results depend on the processing

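No called gene or reverse probe set changed direction under the alternatives run, but counts and medians moved. Except at the 430A scale, the shares called over all genes or probe sets were not counted under these alternatives. As deposited, 430A gave 75 probe sets higher in kidney, 0 in brain and a median of -1.87, 430B 1 in kidney and -0.14, and genes 40 and -1.75; the medians were -1.42 for mitochondrial ribosomal proteins, -1.64 for TOP mRNAs, -2.00 for the other names and -1.16 for translation factors. With quantile normalization 430A gave 0 in brain and -0.70, 430B -1.40, genes 12 and -0.51, and the lists -0.37 (TOP), -0.67 (other names), -0.29 (translation factors) and -0.56 (mitochondrial). Centred above the 90th percentile, 430A gave 27 in kidney, 2 in brain and -0.51, 430B -1.18, and genes 10, 1 and -0.41. With the floor at the 75th percentile, 430A and 430B gave 0 in brain and the spread within genes was 0.80. With no floor, 430A gave 11 in brain, 430B 2 and -1.52, genes 3, and the spread was 1.77. At the 430A scale, 430B had a median of -0.63 and all genes 0.29. At 1.5-fold 430A gave 2 in brain and genes 31 in kidney and 1 in brain; at 3-fold 430A gave 24 and 0, 430B 0 in brain and genes 8 in kidney. Plain _at probe sets gave 7 in kidney and 0 in brain on 430A, a 430B median of -1.52, 8 genes with -1.21 and a spread of 1.81. The following were chosen after seeing the data: with probe sets of several symbols 92 were higher in kidney on 430A, and at or above the 75th percentile on both arrays the spread was 0.66.

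For reverse U74A, the median was -0.40 with the pair centred, -0.72 with quantile normalization (2 in kidney), -0.13 with the floor at the 50th percentile (1 in brain), -0.24 at the 90th (0 in kidney) and -0.22 with plain _at probe sets. At 1.5-fold 2 were higher in brain, and at 3-fold 0 in kidney. On U74B, Rpl27a had 0.75 with the floor at the 50th percentile. Genes in the top range of the brain array numbered 6 at the 50th and 1 at the 90th percentile, and 2 in kidney with plain _at probe sets. Of the 19 genes at 2-fold, 19 were still so as deposited, 11 with quantile normalization, 10 centred above the 90th percentile and 15 with the higher floor. No paired analysis was possible because each group holds 1 array and the labels give no replicate numbers.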

Other observations

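The 110 sense probe sets that list a ribosomal protein symbol together with others were left unnamed, but their signals followed the named ones. Of them, 95 passed the floor, and 2-fold calls numbered 0 towards brain and 54 towards kidney. Over all probe sets above the floor, 19.8% were higher in brain and 21.1% in kidney on 430A, and 18.7% and 23.8% on 430B. The median of the 95 was -1.05 on the log2 scale. At or above the 90th percentile were 74 in brain and 86 in kidney. The part of pseudogene matches in these signals was not tested.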
